A study of Homo sapiens with 6 samples.

Results

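The locus studied here is the stretch of human chromosome 12 from 70 to 73 Mb (hg38), in band 12q21, with the genes PTPRB, PTPRR, TSPAN8, LGR5 and TRHDE. It was described in LaminB1 CUT&RUN data of HCT116, an established human colorectal carcinoma line. These 5 genes were taken out of 19970 protein-coding genes because the locus stood out for its LaminB1 regions in the same libraries. Its covered shares, region edges and read densities are therefore given as a description, without a test. In all, 13 protein-coding genes overlap the stretch, and the other 8 are described beside the members.

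The series has 6 samples in 2 groups, with 2 LaminB1 libraries and 1 IgG library per group. Both groups descend from HCT116 cells in which both endogenous alleles of TOP2A, a type II topoisomerase, carry an auxin-inducible degron (mAID). Palbociclib, an inhibitor of the cyclin-dependent kinases CDK4 and CDK6, was given to all cells at 2 uM for 28 h to hold them in G1. The control group is labelled wildtype in the sample records, while its deposited lists are named for the TOP2A degron cells with no auxin. Cells of the double loss group also lack TOP2B by CRISPR/Cas9 knockout (TOP2B -/-) and received 500 uM auxin for 8 h, which removes up to 95% of TOP2A by the series text. It is labelled a double knockout, although TOP2A was degraded and not deleted. The labels do not say whether the knockout line is 1 clone, nor whether replicates came from separate cultures. Their spread may therefore be technical.

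CUT&RUN releases chromatin next to an antibody-bound protein, so LaminB1 reads mark sequence close to the nuclear lamina, the filament mesh under the inner nuclear membrane. Sequence in contact with the lamina forms long domains that are usually poor in genes, rich in A and T, and weakly transcribed. Type II topoisomerases pass one DNA duplex through another and so relieve the supercoils that transcription and replication leave behind. Among the genes of the locus, LGR5 encodes a receptor for R-spondins that marks the stem cells of the intestinal crypt, and TSPAN8 encodes a tetraspanin, a membrane organiser made in gut epithelium. PTPRB encodes the vascular endothelial receptor tyrosine phosphatase. PTPRR encodes a neuronal phosphatase that acts on MAP kinases, and TRHDE a membrane peptidase that inactivates thyrotropin-releasing hormone.

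Each of the 4 LaminB1 libraries was given as a list of called regions. The lists held 10771 to 13599 regions, which contained 7263458 to 8351031 LaminB1 reads. Reads outside called regions were not given, so a stretch without a region has no measured value and cannot be read as free of LaminB1. Lists of the same group gave equal control library counts for 105 of 105 regions with the same edges, against 3 of 154 between groups. Scoring thus used a different control library in each group, and genotype, auxin, cell line and control library cannot be told apart. Lamina contact is measured here, and no RNA was, so the lists hold no check of the cell type by its markers.

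Start sites inside and outside the regions of the double loss lists are shown first. The lines below give the 250 bases before 5 start sites in GRCh38.p14, 5′ to 3′ on the gene's strand, from RefSeq. Capitals mark every CG pair, except in the second TSPAN8 line, where they mark the letters ATTTAAAT.
TSPAN8, upstream start, chr12:71158000-71158249, minus strand: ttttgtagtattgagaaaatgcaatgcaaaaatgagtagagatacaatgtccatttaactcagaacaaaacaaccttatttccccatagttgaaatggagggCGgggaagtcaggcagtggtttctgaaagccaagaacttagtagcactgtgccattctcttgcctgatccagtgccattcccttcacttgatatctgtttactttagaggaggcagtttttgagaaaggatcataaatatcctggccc
TSPAN8, downstream start, chr12:71157810-71158059, minus strand: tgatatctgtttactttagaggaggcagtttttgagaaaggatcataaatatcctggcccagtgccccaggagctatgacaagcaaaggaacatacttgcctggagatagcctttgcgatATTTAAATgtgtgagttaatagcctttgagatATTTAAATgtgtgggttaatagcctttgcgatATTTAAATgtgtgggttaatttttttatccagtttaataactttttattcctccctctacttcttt
PTPRR, inner start, chr12:70754609-70754858, minus strand: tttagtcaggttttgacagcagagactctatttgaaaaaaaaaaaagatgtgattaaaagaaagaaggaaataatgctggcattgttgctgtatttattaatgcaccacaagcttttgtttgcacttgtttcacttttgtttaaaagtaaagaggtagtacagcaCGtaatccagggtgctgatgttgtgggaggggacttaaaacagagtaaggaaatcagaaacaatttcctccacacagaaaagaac
TRHDE, chr12:72272120-72272369, plus strand: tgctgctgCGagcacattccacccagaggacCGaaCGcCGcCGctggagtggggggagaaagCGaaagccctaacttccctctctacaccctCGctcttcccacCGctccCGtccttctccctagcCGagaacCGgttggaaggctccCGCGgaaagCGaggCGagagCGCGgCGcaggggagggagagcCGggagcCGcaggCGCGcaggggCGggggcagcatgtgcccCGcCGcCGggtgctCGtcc
RAB21, chr12:71754613-71754862, plus strand: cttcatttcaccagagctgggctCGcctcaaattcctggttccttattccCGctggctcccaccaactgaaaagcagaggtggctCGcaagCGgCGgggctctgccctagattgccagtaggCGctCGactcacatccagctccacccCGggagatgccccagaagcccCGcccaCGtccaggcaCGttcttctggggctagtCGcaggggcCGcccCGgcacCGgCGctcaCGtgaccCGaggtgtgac

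Both TSPAN8 starts lay inside regions in both double loss lists and in neither control list. The bases before them were 40.8% and 36% G or C, with 1 and 2 CG pairs. The PTPRR start at 70754608 lay inside a region of double loss 1 only, with 35.6% G or C and 1 CG pair. The only TRHDE start listed, at 72272370, lies inside the annotated gene body. It had 70.4% G or C and 27 CG pairs and lay in no list, 35.4 kb from the nearest double loss region. RAB21, whose product is a small GTPase of endosomes, had 64.8% G or C and 18 CG pairs and was also in no list. Other starts in no list were lower. The PTPRR start at 70788920 had 44.8% G or C and 2 CG pairs, and the TPH2 start had 46% and 5. The RefSeq start sites used here held 15 starts of protein-coding genes in the locus. They had none for PTPRB, LGR5 and KCNMB4, nor for the annotated 5′ ends of PTPRR at 70920738 and TRHDE at 72087266. Both of these ends lay inside regions of both double loss lists, and their G and C content is not known here. The 2 starts in both double loss lists were TSPAN8 starts, and the 2 in double loss 1 alone were PTPRR starts. Within each gene the bases before the 2 starts overlap. The covered starts thus rest on TSPAN8 and PTPRR alone and are not separate observations. Starts in no list include neighbouring CNOT2 starts, from 70243018 to 70243741. The covered starts had 28% to 40.8% G or C, and the 11 starts in no list had 44.8% to 73.6%. Over all chromosomes the median was 46.4% for 566 starts inside regions of all 4 lists and 62.8% for 19873 starts in no list. It was 45.2% for the 139 starts that only both double loss lists covered. Low G and C content at covered starts was thus found in the controls as well.

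The letters ATTTAAAT, which read the same on both strands, occur 3 times before the downstream TSPAN8 start. Each copy has atagccttt shortly before it and gtgtg right after it. The 3 copies are thus parts of 1 repeated unit and not separate occurrences. The letters were picked after the sequence was seen. Of 34789 start sites, 0.759% have them in the same 250 bases, and 2 starts have 3 copies, this TSPAN8 start among them. The match is a description of the sequence and names no factor.

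**Figure D1:**
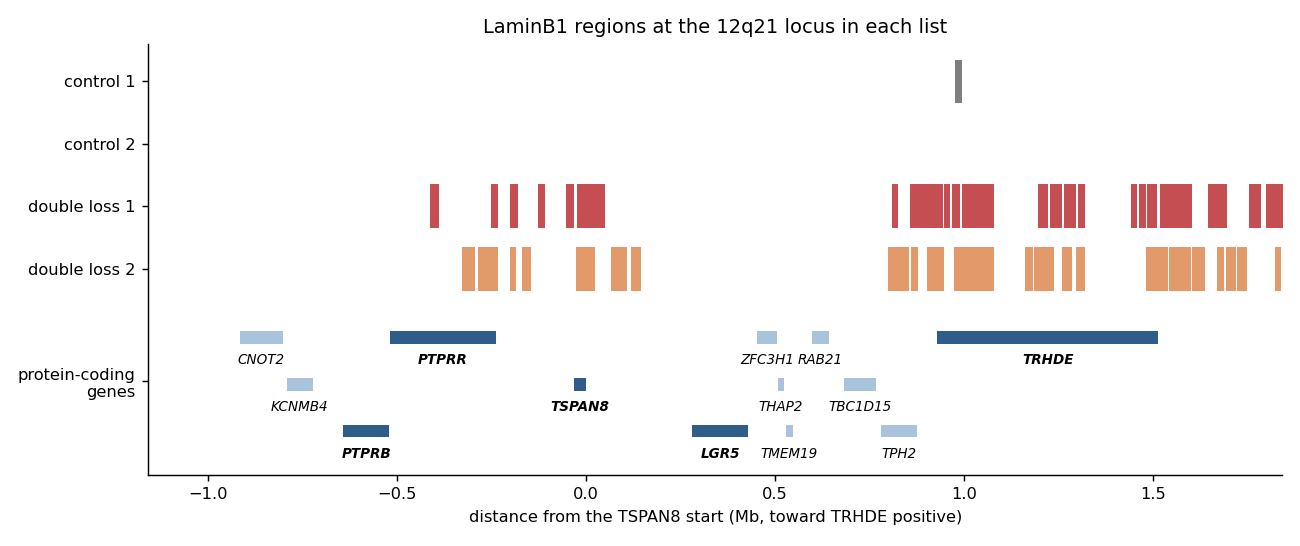
LaminB1 regions of the 4 lists (coloured bars) and protein-coding genes (blue bars, the 5 member genes darker) against distance from the TSPAN8 start in Mb. The control rows hold 1 region of 19 kb in control 1, while each double loss row holds 22 regions in 2 groups with LGR5 between them.

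Over the whole locus, LaminB1 regions covered 19 kb in control 1 and 0 kb in control 2. They covered 778 kb in double loss 1 and 814 kb in double loss 2. The double loss lists therefore lay far above both controls, at 26.5% ± 0.849 of the locus against 0.317% ± 0.448 (SD, n = 2 each). Each double loss list had 22 regions there, against 1 in control 1. The rest of chromosome 12 was covered at 19.3% ± 0.854 in the double loss group and 15.7% ± 0.816 in the control group (SD, n = 2 each). The difference was 26.2 percentage points in the locus and 3.62 points in the rest of the chromosome.

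The double loss regions formed 2 groups split by an empty stretch of 653 kb. The first group ran from 70746001 to 71304000, over most of PTPRR, TSPAN8 and the sequence on both sides of TSPAN8. It was covered at 31.9% in double loss 1 and 42.8% in double loss 2, and in neither control. The second group ran from 71957001 past the end of the locus, over most of TPH2, all of TRHDE and the gene-free sequence after it. It was covered at 57.5% and 55.1% in the double loss lists, 1.82% in control 1 and 0% in control 2. Before the first group lay 746 kb without a region in any list, with CNOT2, KCNMB4 and PTPRB.

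TSPAN8 lies at 71125096 to 71157999 and had the highest covered share of the 13 genes. Its share was 0% in control 1, 0% in control 2, 75.7% in double loss 1 and 79.0% in double loss 2. The double loss values differed from each other by far less than from the controls, at 77.4% ± 2.35 (SD, n = 2). Double loss 1 had a region of 73 kb from 71134001 to 71207000, with 842 LaminB1 reads, or 11.5 per kb, and 7.60 control library reads per kb. Double loss 2 had a region of 50 kb from 71132001 to 71182000, with 581 LaminB1 reads, or 11.6 per kb, and 7.86 control library reads per kb. Both regions ran from inside the gene across its start into the sequence toward LGR5, and the 48 kb they shared was the third longest stretch common to the double loss lists in the locus. A further region of double loss 1, from 71104001 to 71126000, covered only the last part of the gene. Once each list was reduced to its upper 50% by deposited log2 fold, TSPAN8 stayed at 75.7% in double loss 1 and was at 0% in double loss 2.

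PTPRR lies at 70638073 to 70920738 on the minus strand, so its annotated 5′ end is at the higher coordinate. Its covered share was 0% in both controls, 13.0% in double loss 1 and 28.6% in double loss 2. The double loss lists agreed less here than at TSPAN8, with a mean of 20.8% ± 11.0 (SD, n = 2). Double loss 1 had regions from 70746001 to 70768000 and from 70906001 to 70926000. Double loss 2 had regions from 70831001 to 70864000 and from 70873001 to 70924000. Only the stretch from 70906001 to 70924000 was common to both, which is 5.21% of the gene body and includes its 5′ end. The part of the gene toward PTPRB, up to 70746000, held no region in any list. In the same upper 50%, PTPRR was at 0% in double loss 1 and 16.9% in double loss 2.

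PTPRB, at 70515870 to 70637429, was at 0% in all 4 lists, and the nearest double loss region was 109 kb away. LGR5, at 71439129 to 71586310, was at 0% in all 4 lists as well, 135 kb from the nearest double loss region. TSPAN8 and LGR5 are neighbours among protein-coding genes, and the 281 kb between them was covered at 17.4% in double loss 1 and 32.7% in double loss 2. That coverage stopped at 71207000 in double loss 1 and at 71304000 in double loss 2. The double loss regions thus reached across the TSPAN8 start but not to LGR5.

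TRHDE, the longest gene of the locus at 583 kb, lies at 72087266 to 72670758. Its covered share was 3.26% in control 1, 0% in control 2, 51.7% in double loss 1 and 47.2% in double loss 2. The group means were 49.5% ± 3.18 with double loss and 1.63% ± 2.3 in the controls (SD, n = 2 each), and the groups did not overlap. Double loss 1 had 11 regions on the gene and double loss 2 had 7. The regions averaged 12.6 LaminB1 reads per kb over the covered gene body in both double loss lists. Control library reads stood at 8.04 and 7.95 per kb there.

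Coverage within TRHDE was uneven. RefSeq extends the gene to 72087266, an end inside regions of both double loss lists, while the start in the promoter table is at 72272370. The part before that start was covered at 71.2% in double loss 1 and 65.8% in double loss 2, and the part from it on at 42.7% and 38.6%. The start at 72272370 lay in a gap of 82 kb, from 72237001 to 72319000, without a region in any list. A second gap of 121 kb, from 72479001 to 72600000, was also shared by both double loss lists. The stretch from 72153001 to 72236000, at 83 kb, was the longest in the locus common to both double loss lists.

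The only control region of the locus lay in TRHDE, in control 1 from 72134001 to 72153000. It held 191 LaminB1 reads, or 10.1 per kb (exact 95% Poisson interval 8.68 to 11.6), and 115 control library reads, or 6.05 per kb (5.00 to 7.27). Intervals cover counting error only. Double loss 1 had a region from 72126001 to 72146000 with 13.4 LaminB1 reads per kb (11.8 to 15.1) and 8.35 control library reads per kb. Double loss 2 had a region from 72132001 to 72237000 with 13.0 LaminB1 reads per kb (12.3 to 13.7) and 7.97 control library reads per kb. Reads of both kinds were denser in the double loss regions, and these densities are not scaled for library depth, which is unknown. The authors' log2 fold was 0.46 in control 1, higher than in 31.9% of the regions of that list. It was 0.62 and 0.63 in the double loss lists, higher than in 73.3% and 78.0% of theirs.

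TPH2, which encodes the enzyme that limits serotonin synthesis in the brain, is not among the 5 members and lies next to TRHDE. It was at 0% in both controls, 34.7% in double loss 1 and 74.2% in double loss 2. The 54.8 kb between TPH2 and TRHDE were covered at 100% and 58.0%. After TRHDE, the 329 kb to the end of the locus hold no protein-coding gene and were covered at 64.1% and 60.2%, against 0% in both controls. The second longest common stretch, from 72701001 to 72757000, lies there.

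The remaining genes were at 0% in all 4 lists. They are CNOT2, of the CCR4-NOT complex that removes poly(A) tails, KCNMB4, a potassium channel subunit gene, ZFC3H1, of nuclear RNA decay, THAP2, TMEM19, RAB21 and TBC1D15, of endosome and lysosome traffic. Except for CNOT2 and KCNMB4 they lie between LGR5 and TPH2. Of the 13 genes, 4 were covered in both double loss lists and above both controls, PTPRR, TSPAN8, TPH2 and TRHDE, and 9 were in no list. Of the 5 members, 3 lay above both controls and 2 were at 0% everywhere. Over the 3057 protein-coding genes covered in at least 1 list, the share above both controls was 21.5% and the share below both 13.8%. The members were chosen on this contrast, so nothing is read from their count. By limma, 1.67% of the same genes were called higher and 0.981% lower at an adjusted p under 0.05. With 10 kb flanks or a replicate block limma called 0 genes in either direction, with 542 and 327 at an unadjusted p under 0.05. Leaving out 1 library gave 106 to 377 higher in place of 51, the most without double loss 1.

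**Figure D2:**
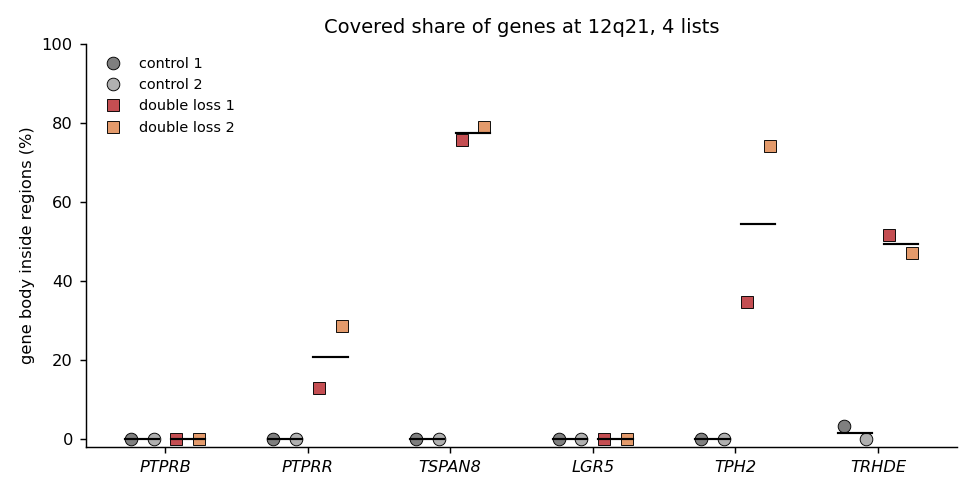
Share of each gene body inside LaminB1 regions, in percent, for the 5 member genes and TPH2, with 1 point per list and a line at each group mean. TSPAN8 stands at 75.7% and 79.0% in the double loss lists and PTPRB and LGR5 at 0% in all 4.

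In steps of 20 kb, 69 of the 150 steps of the locus held a region in some list. Control 1 reached 2 of them, control 2 reached 0, double loss 1 reached 52 and double loss 2 reached 58. Both double loss lists lay above both controls in 40 steps and below both in 0. Over all 50355 steps of the genome with any region, 14.1% lay above and 9.8% below, and on the rest of chromosome 12 19.1% lay above. Since the locus was chosen for this contrast, its 58.0% of covered steps is a description.

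The steps show where the double loss lists matched. Both were at 100% in 9 steps, of which 2 adjoin at TSPAN8, from 71140001 to 71180000. Another 3 adjoin in the first part of TRHDE, from 72160001 to 72220000, and 2 at its annotated beginning, from 72060001 to 72100000. The last 2 are single steps, in TRHDE at 72360001 and after it at 72720001. In 28 steps only 1 double loss list had a region. From 70840001 to 70900000, in PTPRR, the 3 steps stood at 100%, 55.0% and 100% in double loss 2 and at 0% in double loss 1. From 71220001 to 71300000, between TSPAN8 and LGR5, 4 steps stood at 45.0% to 100% in double loss 2 and at 0% in double loss 1.

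The double loss lists shared less than either held. They had 469 kb in common of 1123 kb in either, a Jaccard index of 0.418, beside 0.626 over the whole lists. The common part was 60.3% of double loss 1 and 57.6% of double loss 2 in the locus. Of it, 457 kb lay in neither control list and 12 kb in control 1. No region start or end fell at the same 1 kb position in both double loss lists, over 22 starts and 22 ends, and 10 of these 44 edges came within 5 kb. Edges thus differed between the double loss lists, and in 28 steps of 20 kb so did the presence of a region.

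The regions were of ordinary strength for their lists. The deposited log2 fold ran from 0.28 to 0.67 in double loss 1, with a median of 0.57 against 0.51 for the whole list. In double loss 2 it ran from 0.23 to 0.70, with a median of 0.49 against 0.50. LaminB1 reads per kb had medians of 12.1 and 12.2, against 12.2 and 12.3 over the whole lists. Control library reads per kb had medians of 8.13 and 8.17, against 8.22 and 8.24. In width the regions had medians of 24 and 30 kb, against 29 kb in both whole lists. The weakest were in double loss 2 from 72762001 to 72796000, after TRHDE, at a log2 fold of 0.23, and in double loss 1 from 70746001 to 70768000, in PTPRR, at 0.28. The strongest region of each list lay after TRHDE on the same sequence, at 0.67 from 72677001 to 72761000 in double loss 1 and at 0.70 from 72701001 to 72757000, wholly inside it, in double loss 2.

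Control library reads bear on these calls, because a region is scored against them. In sequence called in all 4 lists, control library reads put chromosome 12 at 0.969 and 0.968 times the median chromosome in control 1 and control 2, and at 1.00 in both double loss lists. LaminB1 reads put it at 0.974 and 0.978 in control 1 and control 2, and at 0.969 and 0.971 with double loss. The locus itself has no sequence called in all 4 lists, and the part of the control library in its calls was not tested.

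**Figure D3:**
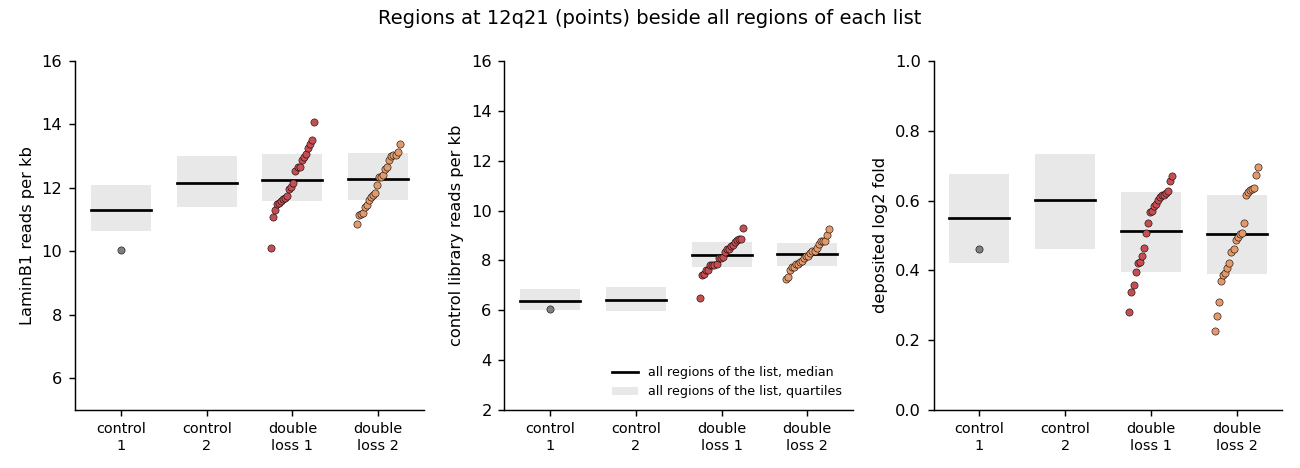
LaminB1 reads per kb, control library reads per kb and deposited log2 fold of each region at the locus (points), with the quartiles (grey box) and median (line) of all regions of the same list. The points of the double loss lists spread around their lists' medians, and control 2 has no point.

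On chromosome 12 the locus lay in a long stretch without control regions. Apart from the 19 kb in TRHDE, neither control list had a region in the 8776 kb from 68188001 to 76964000. Each double loss list had 32 regions in that stretch, covering 1009 and 1076 kb, and 77.1% and 75.7% of those kb lay in the locus. The double loss regions ran on past 73 Mb, where the next began at 73009001 and 73022001, so the end of the locus is not an end of the coverage. In the next 3 Mb the double loss lists were covered at 7.10% and 8.73% and the controls at 0%.

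The 3 Mb windows with control regions on either side went the other way. From 67 to 70 Mb the controls were at 19.2% and 15.8% and the double loss lists at 13.2% and 11.3%. From 76 to 79 Mb the controls were at 25.4% and 19.9% and the double loss lists at 17.6% and 15.8%. Both double loss lists lay below both controls in each of these windows. Of 44 windows of 3 Mb on chromosome 12, the locus had the second largest difference, after the window from 43 to 46 Mb. Over 992 windows of all chromosomes it had the sixth largest. Among the 431 windows under 5% in both control lists it had the third largest, where the median difference was 0 points. These ranks describe why the locus was chosen and carry no test.

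**Figure D4:**
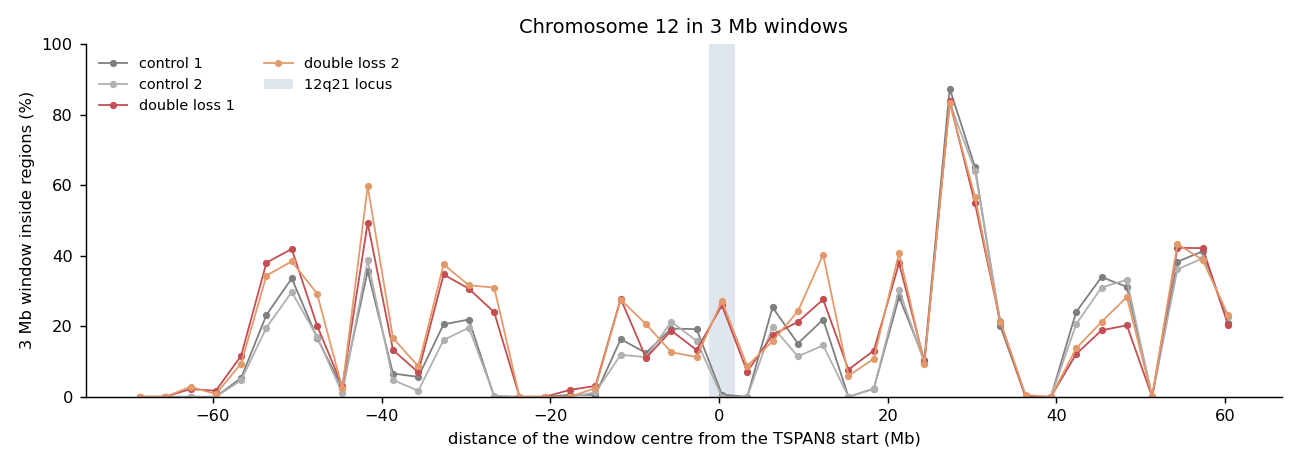
Share of each 3 Mb window of chromosome 12 inside LaminB1 regions, in percent, for the 4 lists, against the distance of the window centre from the TSPAN8 start in Mb. In the shaded locus the double loss lists stand at 25.9% and 27.1% and the controls at 0.633% and 0%.

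The genes elsewhere whose covered shares in the 4 lists were most like those of TSPAN8 were found by the sum of absolute differences over the 4 lists, among genes of at least 20 kb. NELL2 on chromosome 12 came first, at 0% in both controls, 62.9% in double loss 1 and 74.9% in double loss 2, a sum of 16.9 points. NELL2 lies at 44508275 to 44921848, within the chromosome 12 window with the largest difference. Next came TMEM168 and CROT on chromosome 7, DOCK10 on chromosome 2 and MTSS1 on chromosome 8, with sums of 19.8 to 23.2 points.

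The families of the members were described through lists of related genes. Each list holds members chosen on this contrast, so its counts and median are a description, to be set beside 21.5% of all covered genes above both controls, 13.8% below both and a median difference of 0.776 points. Among 33 tetraspanin genes, 5 were covered in some list, with 3 above both controls, TSPAN8 among them, and 0 below both, beside 21.5% and 13.8% of all covered genes. The median difference of the 5, TSPAN8 included, was 50 points, against 0.776 points over all genes tested. That median is the value of CD53 itself, which rests on double loss 2 alone, at 100% against 0% in the other 3 lists. It therefore does not describe a shift of the family. TSPAN12, a tetraspanin of retinal vessel signalling on chromosome 7, was at 0% in both controls and at 55.4% and 60.1% in the double loss lists (limma adjusted p = 0.0233 over all genes). The fit by limma called 2 of the 5, TSPAN12 and TSPAN8, both higher, beside 1.67% of all covered genes. TSPAN8 had been chosen on this contrast, and TSPAN12 was named for its large difference in it, so neither call is separate support. Both calls ended with 10 kb flanks and with the replicate block.

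Among 20 receptor-type tyrosine phosphatase genes, 9 were covered in some list, with 4 above both controls, PTPRR among them, 1 below both and a median difference of 6.35 points. Over all covered genes these were 21.5%, 13.8% and 0.776 points. By limma 0 of the 9 passed, with 2 at an unadjusted p under 0.05, PTPRT and PTPRR, of which PTPRR had been chosen on this contrast. PTPRT on chromosome 20 was below, at 59.7% ± 0.421 in the controls and 6.99% ± 0.855 in the double loss lists (SD, n = 2 each). Chromosome 20 itself differed between groups in sequence called in all 4 lists. Control library reads put it at 1.571 and 1.566 times the median chromosome in control 1 and control 2. In double loss 1 and double loss 2 they put it at 1.189 and 1.196. LaminB1 reads put it at 1.224 and 1.218 in the controls and at 1.017 and 1.021 with double loss. The part of this shift in the PTPRT difference was not tested. PTPRO on chromosome 12 was at 27.0% ± 8.20 in the controls and 45.3% ± 2.31 in the double loss lists (SD, n = 2 each). PTPRR had the second largest difference of the list.

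Among 21 genes of the LGR5 pathway and of intestinal stem cells, 5 were covered in some list, with 1 above both controls, 0 below both and a median difference of 0 points. The share above, 1 of 5, is near the 21.5% of all covered genes, whose median was 0.776 points. The gene above was LGR4, the paralog of LGR5 on chromosome 11, at 22.5% and 13.1% in the controls and 41.2% and 33.7% with double loss. OLFM4, a crypt stem cell marker on chromosome 13, overlapped between groups, at 77.7% and 100% in the controls and 0% and 82.8% in the double loss lists. RSPO3, which encodes an R-spondin ligand, overlapped as well, at 50.7% and 72.2% against 89.7% and 64.8%. By limma 0 of the 5 passed, with 0 at an unadjusted p under 0.05.

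Of 13 genes of M1 aminopeptidases and their relatives, 3 had covered sequence, 2 above both controls, TRHDE among them, and 0 below, with a median difference of 14.4 points. Over all covered genes these were 21.5%, 13.8% and 0.776 points. TRHDE had the largest difference of the list. TAF2, a TFIID subunit related to this family, was at 1.2% and 27.7% in the double loss lists and 0% in the controls. ERAP1, a peptide-trimming enzyme of antigen presentation, had 15.4% in control 2 alone. By limma 0 of the 3 passed, with 1, TRHDE, at an unadjusted p under 0.05, which its choice on this contrast deprives of weight as a test.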

How the data were processed

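LaminB1 CUT&RUN libraries of 2 groups were sequenced in paired-end mode, per the labels' protocols. The submitters' processing notes name Bowtie2 2.3.4.3, Picard and hg38. The region caller is not given in the sources used here. The authors deposited 1 region list per LaminB1 library on a 1 kb grid, with counts of LaminB1 reads and of control library reads per region, not normalized. A p-value, an adjusted p-value, a score and a log2 fold per region were also deposited, per the file headers. The log2 fold equals log2 of the 2 counts' ratio minus 1 constant per list, and the score is 100 times it. The name of each list gives its genotype, treatment and replicate, which matched it to 1 sample. Whether the control library is the IgG library of the group is not given in the sources used here, and IgG samples were not analysed here.

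Chromosomes 1 to 22 and X were kept, which dropped 1 to 2 regions per list. Shares were computed in pandas 2.3.3 and numpy 2.4.6, intervals in scipy 1.17.1 and figures in matplotlib 3.10.9, under Python 3.11.15. Gene positions, names and start sites came from RefSeq tables of GRCh38.p14, which shares its primary coordinates with hg38, and are printed from 1. The table of start sites held no entry for PTPRB, LGR5 and KCNMB4, nor for the 5′ ends of PTPRR at 70920738 and TRHDE at 72087266. Reads were taken as evenly spread within a region. Groups of regions were split at gaps over 300 kb, chosen after the data were seen. Shares of gene bodies covered in at least 1 list were fitted over the whole table with limma 3.58.1 in R 4.3.3 (arcsine square root scale, trended variance, Benjamini-Hochberg, threshold 0.05), which was tested on simulated shares. The simulation gave every gene noise of the same size, whereas TSPAN8, for example, had no spread between the control lists.

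Named genes were the 5 members, the other protein-coding genes of the locus, the 3 members of each family list with the largest difference, and the 5 genes most like TSPAN8. The members, lists and alternatives were chosen with earlier results of these data known. Alternatives used a replicate block, left out each library, kept only the strongest regions (the upper 50%, or as many in each list as in the shortest), merged regions up to 5 kb apart, dropped regions under 10 kb, and changed flanks, transformation, filter, step size and edge tolerance.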

Additional observations from a re-analysis of the deposited data

How the results depend on the processing

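When regions in the lower 50% of each list by log2 fold were dropped, the covered length of the locus was 438 kb higher in the double loss group in place of 786.5 kb, and 20 steps in place of 40 lay above both controls. TSPAN8 was then at 37.8 points, PTPRR at 8.44 and TRHDE at 44.0. TSPAN8 was at 0% in double loss 2, and PTPRR was at 0% in double loss 1 and 16.9% in double loss 2. With an equal number of regions per list the locus was at 747 kb. Steps of 10 and 50 kb gave 66 and 23 steps above both controls. Edges within 5 kb gave 10 shared edges in place of 0. PTPRB and LGR5 stayed at 0 under every alternative run. None of these could have changed that, because the nearest double loss region was 109 and 135 kb away. Leaving out each library in turn gave 768.5 to 804.5 kb for the locus, 40 to 58 steps above both controls, 75.7 to 79.0 points for TSPAN8, 13.0 to 28.6 for PTPRR and 45.6 to 50.1 for TRHDE.

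Genes called by limma numbered 51 higher and 30 lower. They were 26 higher with an equal number of regions, 46 lower with regions up to 5 kb apart merged, and 0 in both directions with 10 kb flanks. Without control 1 or control 2, 157 or 106 were higher and 222 or 226 lower. Without double loss 1 or 2, 377 or 346 were higher and 125 or 121 lower. Each of these fits leaves 1 sample in a group, which is assumed to vary like the other group, so the spread comes from that group alone. With a replicate block limma called 0 higher and 0 lower, with 327 genes at an unadjusted p under 0.05 against 475 without the block. Replicate numbers did not pair the lists, as same-numbered lists deviated with a correlation of -0.020 across 3057 genes. The fit without a filter was not run to a result, because the trended variance could not be fitted. Depth outside regions is unknown, so how far uncovered sequence fell short of a call cannot be given.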
